A study of Homo sapiens with 8 samples.

Results

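H3K9ac peaks that lay in coding exons, 3′ untranslated regions (3′ UTRs) or at transcript ends, and more than 1000 bp from the nearest transcription start site (TSS), were examined in MIA PaCa-2 cells. They were taken from the 2 deposited H3K9ac peak lists by the annotation class that HOMER, a peak caller and annotator, had given each peak and by its distance to the nearest TSS. There were 357 such peaks among the 27467 of both lists. The astromal list held 66 among 7141 peaks (0.924%, 0.716 to 1.17), and the stromal list 291 among 20326 (1.43%, 1.27 to 1.60). The astromal 66 comprised 24 exon, 17 3′ UTR and 25 transcript-end (TTS) peaks, and the stromal 291 comprised 123, 56 and 112. Brackets after a share hold exact Clopper-Pearson 95% intervals, which cover counting error only.

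MIA PaCa-2 is an established line of human pancreatic cancer cells, grown here as spheroids in a hyaluronan hydrogel made of Glycosil and Extralink. The astromal gel had water in place of the collagen component Gelin-S and was fed DMEM with 2% FBS. The stromal gel held Gelin-S and was fed medium with 2% FBS that myofibroblasts, immortalized from resected human pancreatic tumours, had conditioned for 48 h. Gel and medium changed together, so their parts cannot be told apart, and each combination of mark and condition was 1 library of 1 cell line, which gives no replicate check and no test between conditions.

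H3K9ac, acetylation of lysine 9 of histone H3, is best known from nucleosomes beside active promoters, where it is written by enzymes such as GCN5 and PCAF. H3K27ac, written by p300 and CBP, marks active promoters and enhancers alike. A peak inside an exon or at a transcript end can belong to the gene that holds it, to an unannotated start inside it, to a neighbour's promoter that faces it, or to an enhancer, and a peak list does not separate these. In the text the host is the gene whose exon, UTR or end the peak lies in, and the nearest gene is the one with the closest annotated TSS. Where peaks of the 2 H3K9ac lists overlapped, coordinates (hg19) are those of the merged region, and H3K27ac values are those of any peak overlapping it. The class exon means a coding exon here, since no exon peak of the set was on a non-coding transcript.

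The libraries differed in depth, estimated from the values at 3923202 tags for astromal and 7569791 for stromal H3K9ac, with 13453902 and 17190695 for H3K27ac. The level of a peak is its deposited tag signal scaled to a library of 10000000 tags, in which 1 tag was worth 2.55 in astromal and 1.32 in stromal H3K9ac. The median peak rested on 9 astromal or 20 stromal H3K9ac tags. Promoter peaks were present for 1 of 6 epithelial markers in the astromal H3K9ac list (KRT18) and for 3 of 6 in the stromal one (KRT8, KRT18, KRT19). Fibroblast markers had them for 0 of 7 and 3 of 7 (ACTA2, COL1A1, COL1A2; COL3A1, DCN, LUM and PDGFRB were without), with summed levels of 0 and 76.6, from 17.2 to 30.4 per gene with a peak. The mesenchymal marker VIM had them in the stromal list only and the 3 immune markers had none. The part of these differences in the results was not tested.

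For some peaks the nearest gene was a microRNA, and the microRNAs at sites with H3K9ac in both conditions are shown because they name those sites. The TSS of such a gene in the annotation is the start of its hairpin, not of the primary transcript. A microRNA was the nearest gene of 3 astromal and 21 stromal peaks, over 18 microRNA genes in all. The 4 whose peaks were found in both H3K9ac lists have the following mature forms in RefSeq (GRCh38.p14), 5′ to 3′, with the seed, bases 2 to 8, in capitals.
hsa-miR-200c-3p: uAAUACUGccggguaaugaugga
hsa-miR-200c-5p: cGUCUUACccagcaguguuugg
hsa-miR-21-5p: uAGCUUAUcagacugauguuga
hsa-miR-26b-5p: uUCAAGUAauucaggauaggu
hsa-miR-26b-3p: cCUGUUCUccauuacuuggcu
hsa-miR-4257: cCAGAGGUggggacugag
The 6 mature forms shown carry 6 different seeds.

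miR-200c restrains the epithelial-mesenchymal transition by repressing ZEB1 and ZEB2. The peak beside it lay at the end of PTPN6, the phosphatase SHP-1, about 2 kb upstream of the hairpin (distance -2069 in the astromal and -1885 in the stromal list), over chr12:7070693-7071082. Its H3K9ac level was 28.0 astromal and 44.9 stromal, and H3K27ac over the same stretch was 24.5 and 26.8, although the astromal H3K27ac peak touched only the stromal side of that stretch and not the astromal H3K9ac peak itself. miR-21, abundant in many carcinomas, is encoded at the 3′ end of the autophagy gene VMP1. The peak in exon 11 of 12 of VMP1, over chr17:57915575-57915839, lay upstream of the hairpin (distance -2888 in the astromal and -2947 in the stromal list). It had 30.6 astromal and 34.3 stromal H3K9ac, and the closest H3K27ac peaks were 68225 and 54013 bp away. 2 stromal peaks nearest to miR-26b lay at the end of CTDSP1, a small phosphatase that acts on RNA polymerase II and whose intron holds the microRNA. One, of 17.2 at a distance of 3513 bp, was in the stromal H3K9ac list only. The other, at 4266 bp, was shared. Its stromal H3K9ac was 29.1, the overlapping astromal peak of 20.4 was annotated as intergenic, and H3K27ac was 16.4 astromal and 13.4 stromal. The fourth, miR-4257, was the nearest gene of peaks at the end of ADAMTSL4, described with the transcript ends. Its distance was 9717 bp in the astromal and 9869 bp in the stromal list. The merged regions of the shared peaks at PTPN6, CTDSP1 and ADAMTSL4 thus touched a peak of all 4 lists, and the VMP1 site had H3K9ac alone.

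The level of the peaks differed little between classes. In the astromal list the median was 24.2 normalised tags for exon, 22.9 for 3′ UTR and 22.9 for TTS peaks, beside 22.9 for all astromal peaks, and the 66 ranged from 15.3 to 45.9. In the stromal list the medians were 21.1, 21.8 and 22.5, beside 26.4 for all peaks, 19.8 for intronic and 19.8 for intergenic ones beyond 1 kb, with a range of 11.9 to 68.7. The stromal peaks thus sat between the introns and the promoters in level, while the astromal ones stood at the level of their list. In tags the medians were 9 and 17, so the astromal values are coarse.

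**Figure D1:**
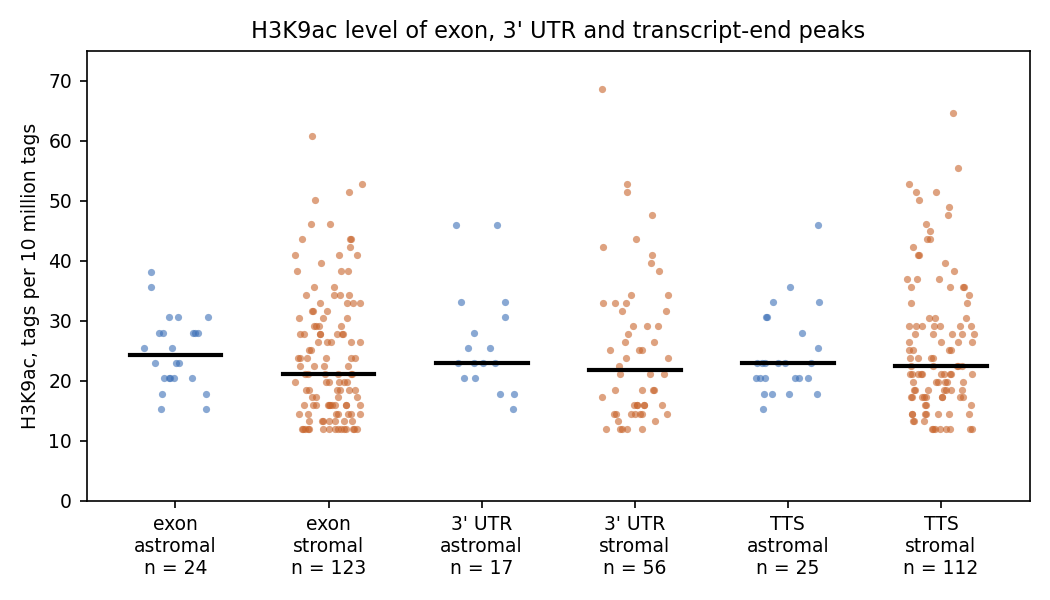
H3K9ac level (tags per 10000000, vertical axis) of each exon, 3′ UTR and TTS peak in the astromal (blue) and stromal (orange) list, with lines at the class medians. The classes overlap throughout, and only stromal peaks reach above 45.9.

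Distances from the nearest TSS had a median of 3411 bp in the astromal and 4689 bp in the stromal list. Exon peaks lay closest, at medians of 2916.5 and 3353 bp, against 3296 and 6154 bp for 3′ UTR and 5027 and 5146.5 bp for TTS peaks. Beyond 10 kb lay 13 of 66 astromal (19.7%) and 89 of 291 stromal peaks (30.6%), and within 2 kb 21 (31.8%) and 86 (29.6%). The limit of 1000 bp that defines the set cut through a continuous range, since 536 astromal and 1326 stromal peaks of the same classes lay within it. Just outside the excluded zone were peaks at RNF103 (1004 bp, level 35.7) in the astromal and MARVELD1 (1004 bp, 26.4) in the stromal list. Just within it were TCEAL1 (988 bp, 20.4) and EIF1 (998 bp, 33.0).

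**Figure D2:**
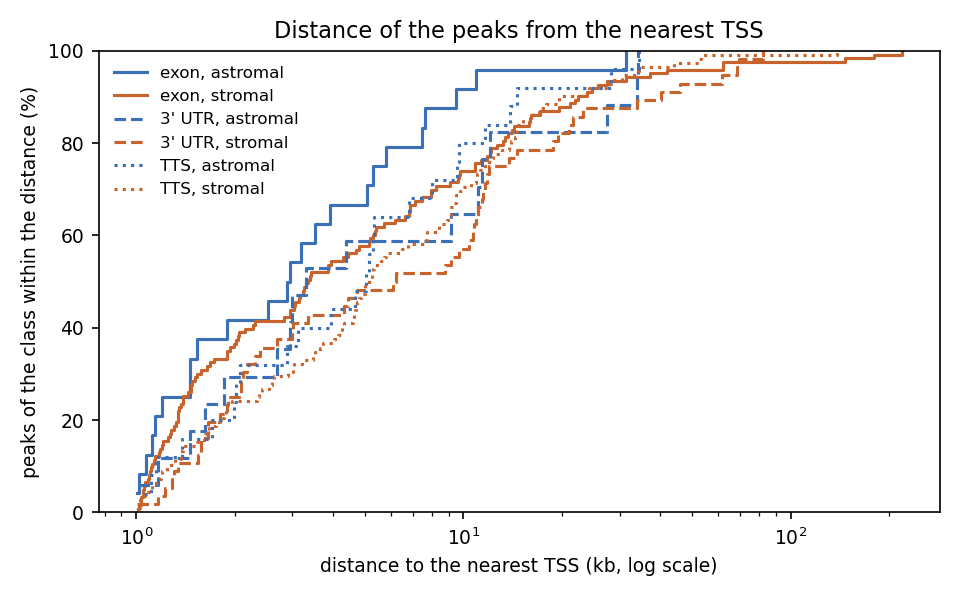
Cumulative share of peaks (vertical axis, %) by distance to the nearest TSS in kb (horizontal axis, log scale), for the 3 classes in the astromal (blue) and stromal (orange) list. Exon curves lie to the left, with medians of 2916.5 and 3353 bp, and all curves start at the 1 kb limit.

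Internal exons held the largest group of exon peaks in each list, and last exons most 3′ UTR peaks. Of the 123 stromal exon peaks, 74 (60.2%) were in internal exons, 30 in the last, 11 in the first and 8 in a gene with a single exon. The astromal 24 divided into 11 internal (45.8%, 25.6 to 67.2), 6 last, 6 first and 1 single. Peaks in first exons lay 1004 to 1528 bp from the TSS in the astromal and 1036 to 1987 bp in the stromal list, near the limit. Last exons held 45 of 56 stromal and 14 of 17 astromal 3′ UTR peaks, and single-exon genes 10 and 2. Of the TTS peaks, 22 of 112 stromal and 5 of 25 astromal were at the end of a non-coding transcript.

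Host and nearest gene often differed. They were the same for 87 of 123 stromal exon peaks (70.7%), 27 of 56 3′ UTR peaks (48.2%) and 56 of 112 TTS peaks, and for 19 of 24, 7 of 17 and 11 of 25 astromal ones. In introns the share was 79.7% astromal and 76.8% stromal. So about as many stromal 3′ UTR and TTS peaks stood closer to the start of another gene as to that of their host. The host had an H3K9ac promoter peak of the same list for 17 of 66 astromal (25.8%) and 138 of 291 stromal peaks (47.4%), below the 33.7% and 66.2% of intronic peaks. Other H3K9ac peaks of the list lay within 1 kb of 15 astromal (22.7%) and 128 stromal peaks (44.0%), beside 31.9% and 61.5% of all peaks, 22.7% and 42.9% of intronic and 22.3% and 38.5% of intergenic peaks beyond 1 kb.

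Chromosome 19, the most gene-dense human chromosome, held 48 of the 291 stromal peaks (16.5%, 12.4 to 21.3), beside 7.47% (7.11 to 7.84) of all stromal peaks. Intronic peaks of the list were at 8.96% and intergenic ones at 6.90% on that chromosome. The exon class had 25 of 123 there (20.3%). The astromal list held 12 of 66 (18.2%, 9.76 to 29.6) beside 8.09%. For chromosome 17 the stromal figures were 29 peaks (9.97%, 6.78 to 14.0) beside 6.29%. The amount of exon sequence per chromosome was not measured, and its part in these shares was not tested.

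**Figure D3:**
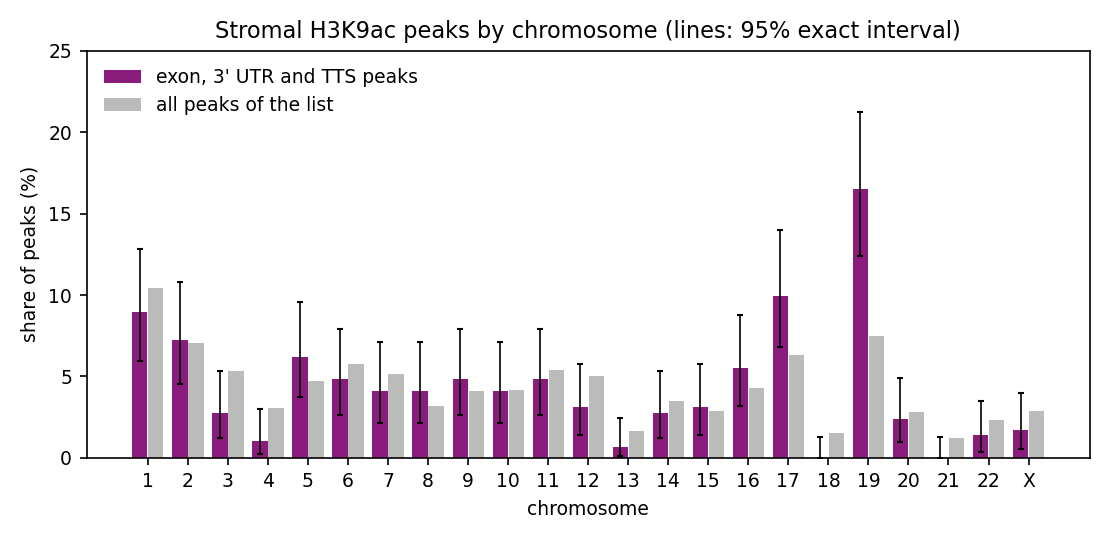
Share of stromal peaks on each chromosome (vertical axis, %) for the exon, 3′ UTR and TTS peaks (purple, lines are exact 95% intervals) and for all peaks of the list (grey). Chromosome 19 stands out at 16.5% against 7.47%.

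In the stromal list, fewer of the peaks had a counterpart in the other condition than the list as a whole. Of the astromal 66, 46 overlapped a stromal H3K9ac peak (69.7%, 57.1 to 80.4), where the figure for all astromal peaks was 75.8%, which lies inside that interval. By class these were 20 of 24 exon (62.6 to 95.3%), 12 of 17 3′ UTR (44.0 to 89.7%) and 14 of 25 TTS peaks (34.9 to 75.6%), with intervals that overlap. Of the stromal 291, 46 overlapped an astromal peak (15.8%, 11.8 to 20.5), where the figure for all stromal peaks was 26.6%, for intronic ones beyond 1 kb 10.9% and for intergenic ones 15.2%. The stromal classes were alike, at 16.3% of exon, 14.3% of 3′ UTR and 16.1% of TTS peaks. Sharing was more frequent among stronger stromal peaks, and the part of level in the gap was not tested. Above the list median the shares were 34.9% here and 46.2% in the whole list, and at or below it 4.86% and 9.34%. The set was thus lower than the list on both sides of the median. Intronic peaks beyond 1 kb had 34.0% and 4.06%, close to the values here.

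Absence from the other list did not always mean a bare surrounding. Of the 20 astromal-only peaks, 14 had a stromal H3K9ac peak within 1 kb, and 16 within 5 kb. Of the 245 stromal-only peaks, 39 had an astromal one within 1 kb. The same counts were not made over all H3K9ac peaks of 1 list only, so they set nothing apart about this class. After overlaps were merged, the 357 peaks formed 318 regions in 278 host genes, 53 of them with H3K9ac in both lists.

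At the 53 sites where both lists overlapped, the stromal level was higher at 43, with a median log2 ratio (stromal over astromal) of 0.60 and quartiles of 0.22 and 0.89. All 5411 shared H3K9ac peaks had a median of 0.64 and were higher in 90.5%. The median of the sites was thus close to that of all shared peaks. By class the median was 0.46 over 25 exon, 0.57 over 12 3′ UTR and 0.74 over 16 TTS sites. Relative to the median of all shared peaks, 0 of 53 sites were at least 2-fold higher with a counting interval clear of 0 and 0 were lower. The same rule called 0.351% of all shared peaks higher and 0.61% lower. Without the interval, 3 sites were at least 2-fold lower, beside 1.85% of all shared peaks, and 0 were higher, beside 0.943%. These were ZNF771 with levels of 22.9 astromal and 14.5 stromal (9 and 11 tags), ADRA1D with 17.8 and 11.9 (7 and 9 tags), and SHF, all on few tags.

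**Figure D4:**
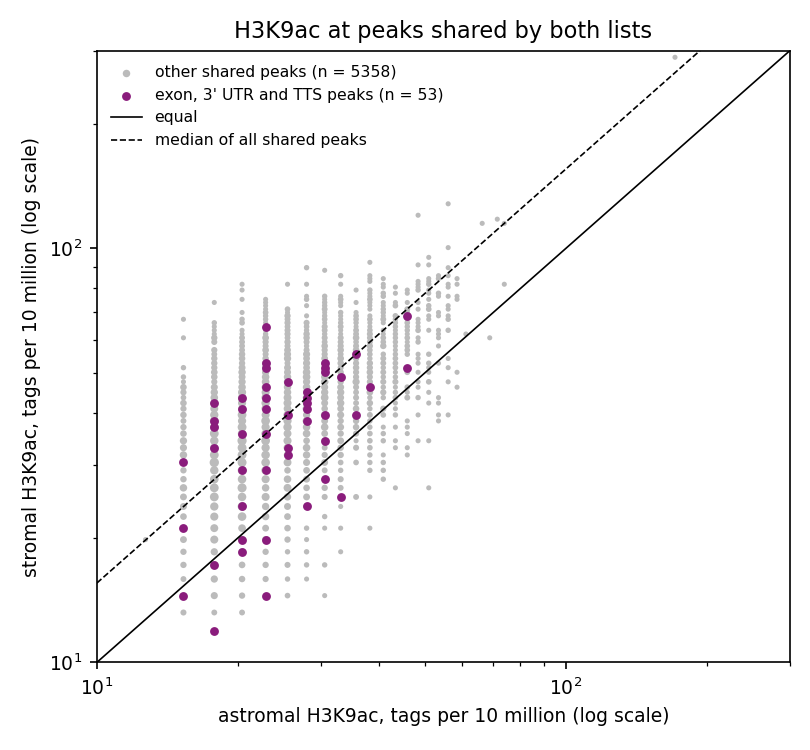
Stromal against astromal H3K9ac level (tags per 10000000, log axes) at peaks shared by both lists, with the 53 exon, 3′ UTR and TTS sites in purple and the others in grey. The purple points spread around the dashed line, the median of all shared peaks, and 43 of them lie above equality.

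Both lists had at least 10 tags at 24 of the 53 sites. The lowest ratio among them was at the end of SHF, an SH2-domain adaptor, with 33.1 astromal and 25.1 stromal H3K9ac on 13 and 19 tags (centred log2 -1.04, -2.13 to 0.10). SYNPO, an actin-binding protein, followed with 28.0 and 23.8 (centred -0.87), then the ribosomal protein gene RPL26 with 30.6 and 27.7 (-0.78) and the ubiquitin ligase gene RNF103 with 35.7 and 39.6 (-0.49). At the top of the 24 was the end of SLC2A1, the glucose transporter GLUT1, with 25.5 and 47.6 (0.26, -0.78 to 1.44). The linker histone gene H1FX, whose astromal peak was annotated as promoter, had 30.6 and 52.8 (0.15), the autophagy regulator TP53INP2 30.6 and 51.5 (0.11), and the synaptic vesicle gene SYP 30.6 and 50.2 (0.08). The intervals of SHF and SLC2A1 both span 0. The limit of 10 tags asked for an astromal level of 25.5, above the list median of 22.9. Sites with a higher ratio than SLC2A1 all had fewer than 10 astromal tags, among them ADAMTSL4 (centred 0.86) and RTN2 (0.61). The limit also left out ZNF771 (-1.30) and ADRA1D (-1.22), which were lower than SHF. The extremes of the 24 are thus not those of the 53 sites.

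The strongest exon peak of the stromal list lay in exon 6 of 10 of ATN1, the atrophin gene, at chr12:7046939-7047149. It had 60.8 normalised tags on 46 tags, with the closest astromal H3K9ac peak 5885 bp away. H3K27ac peaks did not overlap it but stood 49 bp (astromal) and 69 bp (stromal) off. TP53INP2, in exon 4 of 5, carried both marks in both conditions, with 14.1 and 8.73 for H3K27ac. SYP, in exon 6 of 7, had H3K27ac in the astromal list only, at 11.1, and H1FX in neither, the closest being 289 and 329 bp away.

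Among 3′ UTRs the highest level in each list was at ST3GAL2, a sialyltransferase gene, in its last exon, 7 of 7. Over chr16:70414606-70414840 H3K9ac was 45.9 astromal and 68.7 stromal. H3K27ac there was 32.0 astromal and 14.5 stromal on 43 and 25 tags, lower in the stromal library before centring. Relative to the medians of all shared peaks, the centred log2 was -0.96 for H3K27ac (-1.73 to -0.21), short of the 2-fold limit of a call. For H3K9ac the centred log2 was -0.05 (-0.85 to 0.81), close to the median of shared peaks but with a wide interval that spans 0. A second astromal peak of 45.9 at chr16:70414998-70415198 was in the astromal list only, with the stromal peak 157 bp off. The nearest TSS was that of DDX19A, an RNA helicase gene, 33882 bp from the astromal peak.

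RNF40, which encodes a subunit of the ligase that ubiquitinates histone H2B, held 5 of the peaks, the most of any host gene. They lay at its end, with ZNF629 as the nearest start. The strongest site, over chr16:30787360-30787711, had 33.1 astromal and 48.9 stromal H3K9ac and 30.5 and 16.3 H3K27ac. The next, over chr16:30786939-30787208, had 25.5 and 39.6 H3K9ac and only astromal H3K27ac, 13.4. ST3GAL2, JUND, RPL27A, LOC101929765, SHF, SYNPO and SLC8A2 held 3 peaks each, and peaks of 1 host are not independent of each other. These counts add both lists. As merged regions RNF40 held 3, and so did RPL27A and LOC101929765.

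SLC11A1, a metal transporter of phagosomes, had 22.9 astromal and 51.5 stromal H3K9ac in its 3′ UTR with H3K27ac of 32.0 and 25.6. There CTDSP1 was the nearest gene. The 3′ UTR of RPL27A, a ribosomal protein gene, had a stromal peak of 52.8 between 2 astromal peaks of 22.9, 114 and 75 bp away and thus not counted as shared. HSD17B1, which makes oestradiol, had an astromal-only 3′ UTR peak of 33.1, with a stromal one 154 bp off. In DDIT4, an inhibitor of mTORC1 induced by stress, the 3′ UTR peak of 47.6 was stromal only, the closest astromal H3K9ac peak being 1721 bp and the closest stromal H3K27ac 2680 bp away. EXTL1, a heparan sulphate glycosyltransferase gene, had a stromal-only 3′ UTR peak of 43.6 that was remote from both, at 198749 bp from astromal H3K9ac and 36964 bp from stromal H3K27ac.

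At transcript ends the highest astromal level was at LSR, a lipoprotein receptor gene, over chr19:35758672-35758937, upstream of the transcription factor gene USF2 (distance -1059 in the astromal list). H3K9ac was 45.9 astromal and 51.5 stromal, and H3K27ac 24.5 and 14.0. The highest stromal level was at ADAMTSL4, over chr1:150534022-150534379, with 22.9 astromal and 64.7 stromal H3K9ac, and H3K27ac of 38.7 and 37.2, which overlapped the stromal but not the astromal H3K9ac peak. NRTN, a ligand of the GDNF family, had the higher level in the stromal library for both marks before centring. The levels were 35.7 and 55.5 for H3K9ac and 14.9 and 25.0 for H3K27ac. The centred log2 was 0 for H3K9ac (-0.90 to 0.99) and 0.93 for H3K27ac (0.13 to 1.78), the latter short of the 2-fold limit. LINC02774, beside ZBTB18, whose astromal peak was annotated as promoter, had 22.9 and 52.8 H3K9ac and no overlapping H3K27ac, the closest being 149 and 91 bp away. None of these 4 sites was called relative to the median of all shared peaks, although ADAMTSL4 and LINC02774 were called higher without centring (log2 intervals of 0.46 to 2.71 and 0.14 to 2.43).

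UCA1, a long non-coding RNA known from carcinomas, had an astromal-only peak of 33.1 at its end and a stromal-only peak of 46.2, the 2 lying 95 bp apart. The end of HOXB-AS3, an antisense transcript within the HOXB cluster, had an astromal peak of 30.6 with the closest stromal peak at 1634 bp. CBY3 and IER5L had stromal-only peaks of 51.5 and 50.2, with an astromal peak 75 bp from the former and 2604 bp from the latter. The end of the apoptosis gene BAD had 17.8 astromal and 33.0 stromal H3K9ac, with H3K27ac in the astromal list only, at 30.5.

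H3K27ac of the same condition overlapped 32 of the 66 astromal peaks (48.5%, 36.0 to 61.1), where all astromal H3K9ac peaks gave 59.7%. In the stromal condition it overlapped 80 of 291 (27.5%, 22.4 to 33.0), where all gave 39.9%. Exon peaks had the least, 25 of 123 stromal (20.3%, 13.6 to 28.5) and 9 of 24 astromal (37.5%). Stromal 3′ UTR peaks were at 18 of 56 (32.1%) and TTS peaks at 37 of 112 (33.0%, 24.4 to 42.6), close to the 34.2% of introns and 36.6% of intergenic peaks. Astromal 3′ UTR and TTS peaks were at 10 of 17 and 13 of 25. The stromal exon interval lay below the figure for stromal introns, while those of the other 2 stromal classes and of all 3 astromal ones included that of introns in their condition (41.3% astromal). On each side of the list median stromal exon peaks were also lower, though level was not matched further. Above it they had 16 of 44 (36.4%, 22.4 to 52.2) beside 51.4% of introns, which the interval includes. At or below it they had 9 of 79 (11.4%, 5.34 to 20.5) beside 29.1%.

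**Figure D5:**
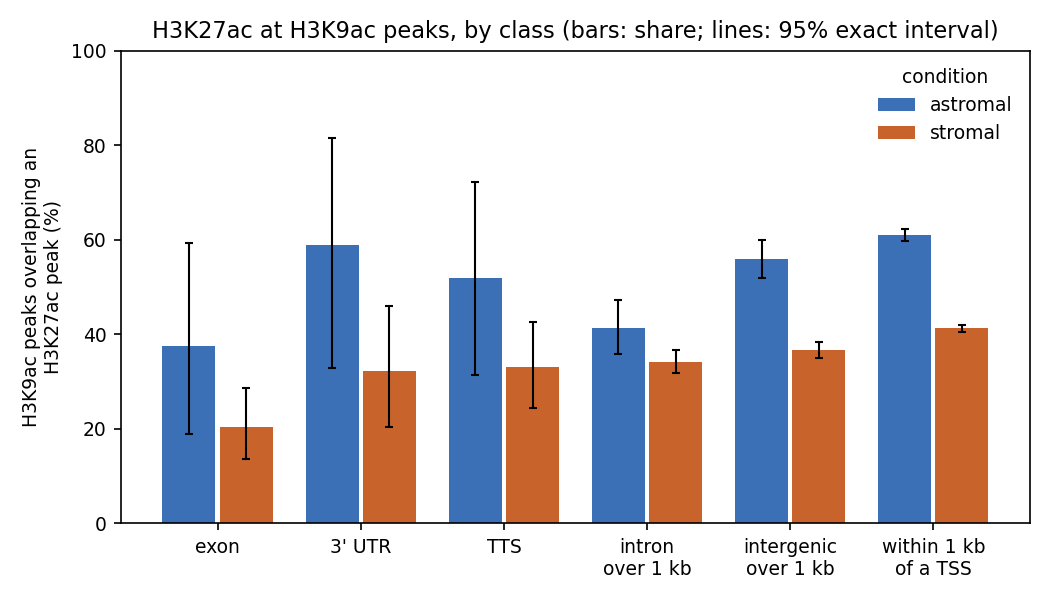
Share of H3K9ac peaks that overlap an H3K27ac peak of the same condition (vertical axis, %) by class, astromal in blue and stromal in orange, with exact 95% intervals as lines. Stromal exon peaks are lowest at 20.3%, and peaks within 1 kb of a TSS reach 61.1% and 41.2%.

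Stronger stromal peaks had H3K27ac more often. Above the list median 48 of 106 peaks had H3K27ac (45.3%, 35.6 to 55.2), beside 53.7% of all stromal peaks above it, and at or below the median 32 of 185 (17.3%), beside 27.7%. Allowing a gap of up to 1 kb raised the shares to 51 of 66 (77.3%) and 156 of 291 (53.6%), where all peaks gave 87.4% and 66.9%. Strong peaks without H3K27ac within 1 kb included VMP1, SHF, HOXB-AS3 and PHLDA1 in the astromal list. In the stromal list they were DDIT4, EXTL1, the histone gene HIST1H2AK (41.0) and CHMP7, an ESCRT subunit gene (41.0), of which CHMP7 did have astromal H3K27ac, at 14.1. The highest stromal H3K27ac levels were at ADAMTSL4 (37.2), CLIP1-AS1 (35.5), ANKRD44 (34.3) and CFDP1 (32.6).

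Over the 318 regions, 181 (56.9%) had H3K27ac in neither condition, 71 (22.3%) in both, 45 (14.2%) in astromal only and 21 (6.60%) in stromal only. The largest group, 152 regions (47.8%), appeared in the stromal H3K9ac list and no other, and 24 were in all 4 lists. The same split was not counted over all H3K9ac peaks, so these shares cannot be called particular to the set. Of all 20326 stromal H3K9ac peaks, 14915 overlapped no astromal one. H3K27ac did not follow the condition in which H3K9ac was called. Of the 245 regions with H3K9ac in the stromal list only, 78 (31.8%, 26.1 to 38.1) overlapped astromal and 58 (23.7%, 18.5 to 29.5) stromal H3K27ac. All stromal-only H3K9ac peaks gave 35.1% and 33.2%, and the intervals include the first and lie below the second. Of the 20 astromal-only regions, 4 (20.0%, 5.73 to 43.7) had astromal and 7 (35.0%, 15.4 to 59.2) had stromal H3K27ac. All astromal-only peaks gave 40.2% and 37.4%, inside those wide intervals.

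H3K27ac levels at 70 peaks that were shared by both H3K27ac lists and overlapped one of the regions had a median log2 ratio of -0.17, beside -0.18 for all 8813 shared H3K27ac peaks. Astromal H3K27ac peaks were 197 bp and stromal ones 175 bp wide, and per bp of width the medians were 0.00052 and -0.010. Each list had 1 width, so this scaling moved every ratio by the same amount. The part of width in the lower stromal level was not tested. As deposited, 25 of the 70 peaks were higher in the stromal library. The rule used for H3K9ac called 0 higher and 0 lower, where it called 0.465% and 0.953% of all shared H3K27ac peaks. Without centring, 1 of the 70, ST3GAL2, was called lower, beside 2.28% of all. ST3GAL2 was the lowest and NRTN the highest of the 70, at centred log2 values of -0.96 and 0.93.

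Gene families and pathways gave few peaks each, given here as counts. A zinc finger gene of the ZNF family was nearest to 5 of 66 astromal peaks (7.58%, beside 3.99% of all peaks) and to 8 of 291 stromal ones (2.75%, beside 3.19%). HOX genes, which set position along the body axis, were nearest to 2 astromal peaks, at the ends of HOXB-AS3 and HOXD13 (3.03%, beside 0.154% of all astromal peaks), and to 0 stromal ones (beside 0.108%). Genes with histone symbols (HIST) were nearest to 2 astromal (3.03%, beside 0.448%) and 3 of 291 stromal peaks (beside 0.280% of all). They included HIST1H4E with a stromal peak of 35.7 and HIST2H2BC, which the files class as a pseudogene. These counts are too small to set the lists apart. The SOX4 3′ UTR had stromal peaks of 21.1 and 18.5, and the KLF9 exon a stromal peak of 15.9, where SOX genes were nearest to 0.0689% and KLF genes to 0.123% of all stromal peaks.

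Of 24 immediate early and growth response genes, 2 had such peaks in each list, as the nearest gene of 2 of 66 astromal and 3 of 291 stromal peaks (beside 0.308% and 0.246% of all peaks). JUND, an AP-1 subunit, had 28.0 astromal and 42.3 stromal H3K9ac in its 3′ UTR, and H3K27ac of 20.1 and 12.8. PHLDA1 had an astromal exon peak of 28.0, with the closest stromal H3K9ac peak 52705 bp away, and IER5 a stromal 3′ UTR peak of 18.5. Of 28 genes of the cytoskeleton and adhesion, 0 were represented in the astromal and 2 in the stromal list, there with 4 peaks (1.37%, beside 0.349% of all). These were ACTB, with 2 exon peaks of 29.1 each, and ITGB4, nearest to 3′ UTR peaks of 13.2 and 15.9 in SAP30BP. Of 23 metabolic genes, SLC2A1 was represented in both lists and the hexokinase gene HK2 in the stromal one, with an exon peak of 21.1. By nearest gene the metabolic list had 0 astromal and 1 stromal peak (0.344%, beside 0.212% of all). Of 20 chromatin regulators, 0 were represented in either list, where they were nearest to 0.210% of all astromal and 0.133% of all stromal peaks. The end of SLC2A1 had H3K27ac in the astromal list only, at 16.4, with the closest stromal peak 296 bp away.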

How the data were processed

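The submitters' processing notes name CASAVA 1.8.2, Bowtie and HOMER, with build hg19, and each list came from 1 library. H3K27ac peaks were called against input at an FDR of 0.001 and 4-fold over input and over the local region, per the file headers. How stringently H3K9ac peaks were called is not stated in those notes, the labels or the headers. The signal per peak is the deposited tag count normalised to 10000000 tags. In the H3K9ac lists it is named a score, and that it holds normalised tags was read from its even steps, all within 0.036 tag of whole tags. Tags per peak were worked back from these normalised values. For H3K27ac this used the total tags in the headers, and for H3K9ac the estimated worth of 1 tag. The authors' fold over input (a ratio), their p-value and their focus fraction describe single H3K27ac or H3K9ac peaks and enter no test. The distance score in the deposited lists runs from peak centre to TSS.

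Members, gene lists and alternatives were chosen with earlier results of these data known. Peaks were shared at an overlap of at least 1 bp, checked against bedtools 2.31.1 and on simulated data. Shares have exact intervals (scipy 1.17.1). Ratios at shared peaks are log2 of normalised tags, centred on the median of all shared peaks, with intervals from the tags. The ratios of H3K27ac at the regions were added after the data were seen. Host names came from the deposited lists (186 of 281 transcripts) or RefSeq (92), and 3 had none. Host and nearest gene were compared under current RefSeq symbols. Named peaks were the 4 with most normalised tags per class and list, the 4 extreme ratios in each direction among shared sites with at least 10 tags in each, and the 4 strongest of each list only. The rule added the 4 strongest without H3K27ac within 1 kb, the 4 with most H3K27ac, the 5 hosts with most peaks and those tied with them, and family or list members. The microRNA sites, the HSD17B1, UCA1 and RNF40 neighbours and the 2-fold sites were chosen after their values were seen. The 4 input libraries were not used here. The values of 1 exon site that the rule names are not reported here.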

Additional observations from a re-analysis of the deposited data

How the results depend on the processing

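No paired analysis was possible because each group had 1 library, and none could be left out. With a distance limit of 500 bp the number of peaks was 151 astromal and 540 stromal, 2.12% and 2.66% of their lists. A limit of 2000 bp gave shares of 0.630% and 1.01%. Keeping stromal peaks at or above the astromal 5th percentile, 17.8 normalised tags, gave 1.23%. Overlap with the other H3K9ac list was 48.5% astromal and 11.7% stromal when 50% of the peak had to be covered, 90.9% and 29.2% when a gap of 1000 bp was allowed, and 21.9% stromal at the common level. H3K27ac overlap was 31.8% and 21.0% at 50%, 77.3% and 53.6% at 1000 bp, and 36.7% stromal at the common level. Without centring, 4 of 53 shared sites were called higher, beside 13.2% of all shared peaks. The median H3K27ac ratio at the regions was -0.17 as deposited and 0.00052 per bp of peak width. The cause of these shifts was not tested beyond the changed limits themselves. The median ratio at shared sites stayed between 0.53 and 0.61 under the alternatives run. The estimated depth of astromal H3K9ac, the lowest of the 4 libraries, limits which peaks could be called there, so absence from that list is not absence of the mark.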
